A study of Homo sapiens with 12 samples.

Results

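Vehicle-treated HK-2 cells harvested at 48 h were compared with vehicle-treated HK-2 cells harvested at 12 h, to ask what longer culture alone did to gene expression. The comparison holds the 3 control arrays of each time, 6 of the 12 arrays of the series, and all 41091 of the 54675 probe sets that carried exactly 1 gene symbol. HK-2 is an established cell line made by immortalising epithelium of the human proximal tubule. The series exposed it for 12 h or 48 h, either to CdCl or to a vehicle as control, and the sample titles give each of the 4 groups 3 biological replicates. The titles do not say whether replicates were separate passages or separate wells, so p-values measure the spread between these samples only. All cells grew in a 1:1 mix of DMEM and Ham's F12 that held 5 mM glucose, hydrocortisone at 36 ng/ml, EGF at 10 ng/ml, insulin and transferrin at 5 µg/ml each, selenite at 5 ng/ml and Glutamax at 2 mM. They were seeded 24 h before treatment and treated at about 90% confluency, so the control groups lay 36 h and 72 h after seeding. Which vehicle was used, its concentration, whether the medium was renewed and how dense the cells were at harvest are not given in the sources used here. Time in culture, cell density and age of the medium therefore cannot be told apart.

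As background, epithelial cells that approach confluence leave the division cycle, and genes for DNA replication and mitosis, many of them under E2F, MuvB and FOXM1 control, are switched off. Cells short of amino acids, glucose or folding capacity in the endoplasmic reticulum (ER) phosphorylate the translation factor eIF2α, which favours translation of the transcription factor ATF4. Unfolded protein in the ER also activates ATF6 and the IRE1-XBP1 branch of the unfolded protein response. TXNIP, an arrestin-family protein that restrains glucose uptake, is transcribed when the MondoA and ChREBP factors sense glucose phosphates, and is a common gauge of glucose flux.

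The deposited values are log2 signals, and 1 unit is a 2-fold difference. Where a gene had several probe sets, the brightest on average over all 12 arrays stood for it. That gave 19775 genes, and the 10683 genes above 4 on at least 3 of the 12 arrays were tested with limma. Of these, 2502 (23.4%) were higher and 3574 (33.5%) lower at 48 h at an adjusted p under 0.05, and 436 (4.08%) and 711 (6.66%) were so by at least 2-fold. The median change over all tested genes was -0.058. These shares are the background for each list below: a list in which about 23.4% of genes are higher and 33.5% lower does not stand apart. The lists were chosen with earlier results of these data known, so a share beyond the background is a description and not a test. Replicates of a control group correlated at 0.9971 to 0.998 over probe sets and arrays of the different times at 0.9856 to 0.9872, and array medians lay between 2.97 and 3.03. Poly-A spike-ins, which are added before labelling, were lower on all 3 arrays at 48 h (6.14 ± 0.10 SD against 6.53 ± 0.13, n = 3, two-sided exact permutation p = 0.1, the least a design of 3 and 3 arrays can give). The signal of the 3' ACTB probe set over the 5' one, which grows as RNA degrades, was also smaller (1.5 ± 0.12 against 1.90 ± 0.20, n = 3, two-sided exact permutation p = 0.1), and the part of either in the gene results was not tested.

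Stress transcription factors and ER genes led the rises, and TXNIP, a collagenase and division genes led the falls. ATF3, a stress-induced transcription factor, read 3.86, 4.34 and 3.44 on the 3 arrays at 12 h and 9.08, 9.13 and 9.30 at 48 h, a 39.1-fold rise (log2 change 5.29 ± 0.17 SE, adjusted p = 9.6e-10). DDIT3, which encodes the pro-apoptotic factor CHOP, read 7.51, 7.53 and 7.40 at 12 h and 12.66, 12.78 and 12.76 at 48 h, 38.0-fold higher. INHBE, an activin subunit gene, read 7.08, 7.00 and 7.07 against 12.28, 12.33 and 12.36. The groups lay far apart in all 3 genes, and ATF3 was near the floor of detection at 12 h. NUPR1, a small stress-induced chromatin protein, rose by 4.86 ± 0.24 and BEX2 by 4.30 ± 0.09. SLC7A11, the cystine and glutamate exchanger, rose by 4.09 ± 0.10 (17.1-fold). Other SLC7A11 probe sets above the filter gave 4.26 and 2.49.

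**Figure D1:**
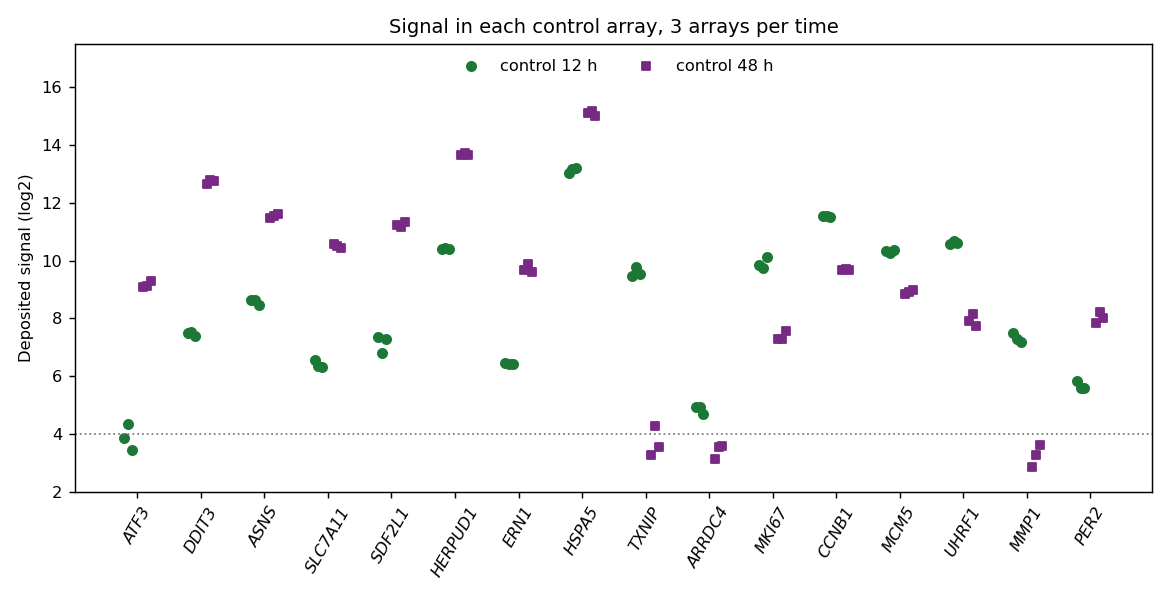
Deposited log2 signal (vertical axis) of 16 genes in each control array, with circles for the 3 arrays at 12 h and squares for the 3 arrays at 48 h; the dotted line marks the filter value of 4. The times did not overlap in any gene shown. Over all tested genes, 27.4% did not overlap with higher values at 48 h and 37.1% with lower ones. TXNIP fell from 9.48 to 9.77 at 12 h to 3.28 to 4.28 at 48 h, while DDIT3 rose from 7.40 to 7.53 to 12.66 to 12.78.

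The other genes among the 15 largest rises were SDF2L1, ERO1B, ERN1, HERPUD1 and DNAJB9, all of the ER, with ALDH1L2, a mitochondrial folate enzyme, SCG5, a chaperone of secretory granules, LAMP3, a lysosomal membrane protein, and LRRC49. SCG5 and LAMP3 lay under 4 on every array at 12 h and are at least 5.03-fold and at least 5.09-fold higher, with that group set to 4. LRRC49 read 5.16, 3.81 and 4.80 at 12 h, the widest spread of these genes, and 7.88, 7.99 and 8.07 at 48 h (log2 change 3.39 ± 0.25). The 15 largest falls held 7 genes of DNA replication, chromosome structure or mitosis: SPC25 and CENPE at the kinetochore, NCAPH of condensin, the histone chaperone ASF1B, the helicases BLM and BRIP1, and UHRF1, which couples DNA methylation to replication. SPC25 fell from 10.01, 9.80 and 9.95 to 6.65, 7.04 and 6.66. The 8 others encode TXNIP, the collagenase MMP1, the sodium channel subunit SCN3A, the calcium pump inhibitor sarcolipin (SLN), the hyaluronan-binding protein TNFAIP6, the neuropeptide galanin (GAL), tissue plasminogen activator (PLAT) and the crosslinking enzyme TGM2. SCN3A was at least 6.26-fold, SLN at least 6.06-fold, TNFAIP6 at least 4.13-fold and BLM at least 3.44-fold lower, since their 48 h arrays all lay under 4. GAL had the largest SE of the 15 falls (-2.85 ± 0.28), with 4.04, 4.80 and 3.54 at 48 h against 7.47, 6.67 and 6.80 at 12 h.

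**Figure D2:**
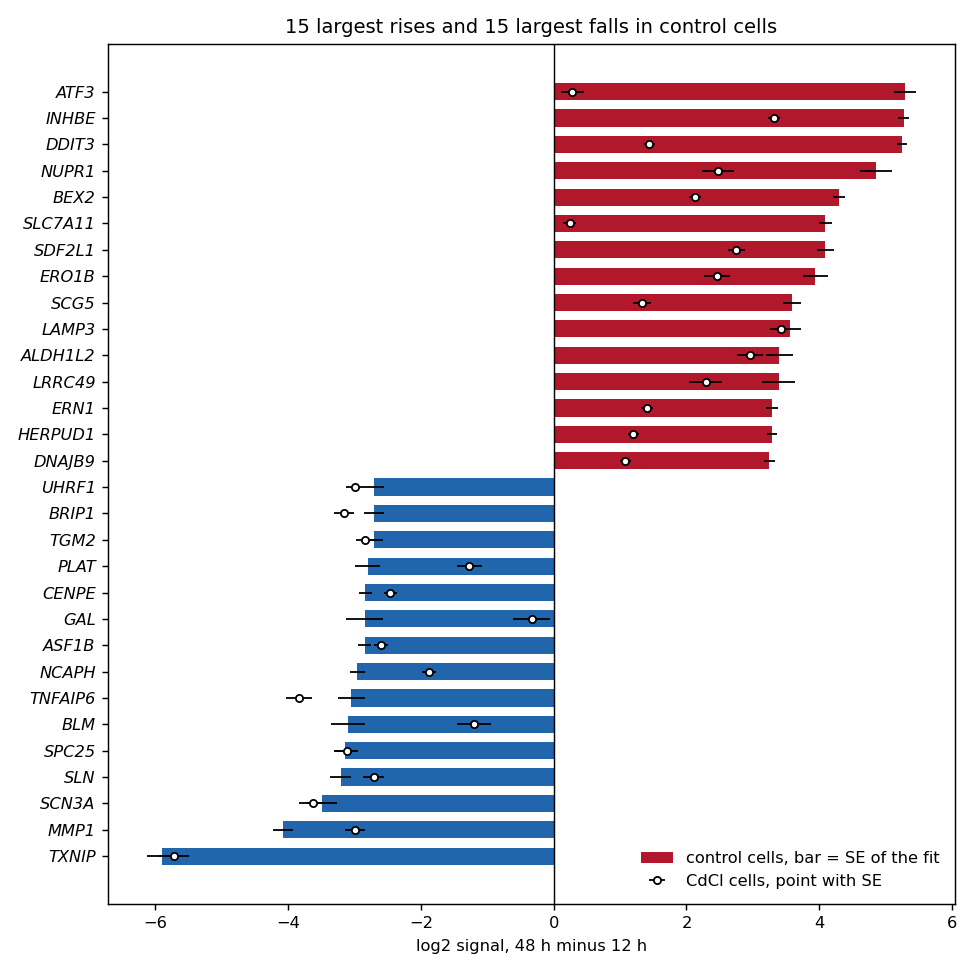
Log2 change from 12 h to 48 h (horizontal axis) of the 15 largest rises and 15 largest falls in control cells, drawn as bars with the standard error of the fit, and of the same genes in CdCl-treated cells, drawn as open points with their standard error. ATF3 and SLC7A11 rose by 5.29 and 4.09 in control cells and changed by 0.28 and 0.24 in CdCl cells. The bars and points of genes that lay under 4 in a group, TXNIP and MMP1 among them, include signal under the filter value.

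Targets of ATF4 rose together: of 29 tested members, 27 rose, 1 fell (ATF5) and 1, PSAT1, did not pass, with 23 at least 2-fold higher and a median change of 1.69. FGF21 and ADM2 lay under the filter. The values of ATF4 itself, ASNS, CHAC1, TRIB3 and the ER regulators below are given for their roles and were chosen after they had been seen. ATF4 mRNA read 11.42, 11.28 and 11.40 at 12 h and 13.09, 13.03 and 13.04 at 48 h (1.69 ± 0.06, adjusted p = 2.8e-09). Among transcription factors it works with, CEBPB rose by 1.40 ± 0.06 and CEBPG by 1.61 ± 0.10.

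Amino acid transporters and synthesis enzymes made up much of the ATF4 list. SLC3A2, the heavy chain that pairs with SLC7A11 and SLC7A5, rose by 3.20 ± 0.08 and SLC7A5, a carrier of large neutral amino acids, by 2.64 ± 0.15. ASNS, asparagine synthetase, read 8.65, 8.63 and 8.46 at 12 h and 11.48, 11.54 and 11.60 at 48 h, 7.77-fold higher. In the serine pathway PHGDH rose by 1.40 ± 0.09 and PSPH by 1.15 ± 0.17, whereas PSAT1, which acts between them, changed by 0.05 ± 0.08 (adjusted p = 0.63). In one-carbon metabolism ALDH1L2, SHMT2 and MTHFD2 rose by 3.40, 1.42 and 1.44. Feedback genes rose as well: TRIB3, a pseudokinase that inhibits ATF4, by 2.23 ± 0.07, PPP1R15A, which directs dephosphorylation of eIF2α, by 1.84 ± 0.08, and the glutathione-degrading CHAC1 by 2.22 ± 0.21. CHAC1 had the loosest replicates here, at 7.25, 6.82 and 6.16 at 48 h against 4.53, 4.57 and 4.48.

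The 17 tested aminoacyl-tRNA synthetases, which charge tRNAs and include known ATF4 targets, split: 12 rose, 3 fell and 2 did not pass, with a median of 0.63. WARS1 read 8.86, 8.95 and 9.12 at 12 h and 11.31, 11.27 and 11.47 at 48 h (2.37 ± 0.08). AARS1 rose by 2.20 ± 0.11, SARS1 by 1.78 ± 0.07 and CARS1 by 1.44 ± 0.07. VARS1, HARS1 and RARS1 fell by 0.46, 0.42 and 0.20.

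Promoter letters of these genes were read from RefSeq (build GRCh38.p14), in windows from 250 bases before to 50 bases after a gene's start, to show which rising and falling genes carry a textbook element. Of the 31 ATF4 list genes, 26 matched the promoter table. The letters TGATGNAA, the C/EBP-ATF response element bound by ATF4 dimers, were searched on both strands with N as any base. They stood in 9 of the 26 (34.6%) and in 7 of 16 tRNA synthetase genes (43.8%), against 4.46% of all 27305 genes with a window. Of these 16 genes, 14 were tested and all 14 rose. Among all tested members, 27 of 29 in the ATF4 list and 12 of 17 synthetases rose. Whether a match goes with a rise was not tested. Lists and element were chosen with earlier results of these data known, so the counts are a description. Below are the stretches around the match, upstream of the gene start, with the match in capitals, for ASNS (chr7:97872439-97872506, minus strand), CHAC1 (chr15:40953232-40953299, plus strand), ATF3 (chr1:212565186-212565253, plus strand) and AARS1 (chr16:70289656-70289723, minus strand).
ASNS: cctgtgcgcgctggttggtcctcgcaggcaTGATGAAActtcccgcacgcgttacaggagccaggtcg
CHAC1: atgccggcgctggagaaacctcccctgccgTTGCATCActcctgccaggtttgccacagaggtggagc
ATF3: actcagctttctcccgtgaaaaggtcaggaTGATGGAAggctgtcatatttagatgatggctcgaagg
AARS1: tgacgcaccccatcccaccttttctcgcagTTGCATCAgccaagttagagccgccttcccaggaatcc
In CHAC1 and AARS1 the element reads on the other strand and therefore appears reversed. The match lay 68 to 61 bases before the start in ASNS and 191 to 184 bases before it in ATF3. A match describes letters, not a bound site, and a gene without one may carry the element in another form or outside the window.

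Chaperones, folding enzymes and regulators of the ER rose almost as a whole: of 24 tested genes, 23 rose, 0 fell and 1, P4HB, did not pass (limma, adjusted p = 0.096), with 17 at least 2-fold higher and a median of 1.95. Of the sensors, ERN1, which encodes IRE1, read 6.45, 6.42 and 6.42 at 12 h and 9.68, 9.88 and 9.61 at 48 h (3.29 ± 0.09, adjusted p = 2.1e-10). XBP1, its splicing target, rose by 1.63 ± 0.12 and ATF6 by 1.12 ± 0.09. HSPA5, the chaperone BiP that holds the sensors inactive, was abundant at 12 h (13.02, 13.17 and 13.22) and read 15.10, 15.17 and 15.01 at 48 h, near the array maxima of 15.65 to 15.79. No array of either time overlapped the other in these 4 genes, a separation with higher values at 48 h that 27.4% of all tested genes had.

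Among folding helpers, SDF2L1, a partner of ER DnaJ proteins, read 7.36, 6.81 and 7.27 at 12 h and 11.24, 11.15 and 11.32 at 48 h, 17.0-fold higher. DNAJB9, a co-chaperone that represses IRE1, rose by 3.25 ± 0.08, DNAJC3 by 3.11 ± 0.16 and DNAJB11 by 1.98 ± 0.07. Disulfide isomerases rose less: PDIA4 by 1.95, PDIA6 by 0.92 and PDIA3 by 0.86. Lectin chaperones CALR and CANX each rose by 0.76. In ER-associated degradation, HERPUD1 read 10.39, 10.42 and 10.39 at 12 h and 13.67, 13.74 and 13.65 at 48 h (3.29 ± 0.08), and SEL1L rose by 2.57 ± 0.09 and EDEM1 by 1.20 ± 0.08. WIPI1 and MAP1LC3B, which act in the autophagy that ER and amino acid stress can also engage, rose by 2.15 ± 0.12 and 1.30 ± 0.08.

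Promoters of this list carried the ER stress elements more often than promoters at large. List and elements were both taken as known parts of this response, with earlier results of these data known. The excess is therefore a description and not a test. The ER stress element, CCAAT followed after 9 free bases by CCACG, stood in 7 of 23 list genes with a window (30.4%) against 0.0916% of all genes, and its shorter relative, ATTGG followed after 1 free base by CCACG, stood in 3 of the 23 (13.0%) against 0.0696%. Each element was searched on both strands, and both contain or overlap the CCAAT box in one orientation. All 10 genes were tested and all 10 rose, as did 23 of the 24 tested genes of the whole list. The stretches shown, again upstream of the start with the match in capitals, are HSPA5 (chr9:125241361-125241439, minus strand) and CALR (chr19:12938359-12938432, plus strand) for the longer element, and HERPUD1 (chr16:56931995-56932065, plus strand), SDF2L1 (chr22:21642084-21642154, plus strand) and HYOU1 (chr11:119057244-119057314, minus strand) for the shorter.
HSPA5: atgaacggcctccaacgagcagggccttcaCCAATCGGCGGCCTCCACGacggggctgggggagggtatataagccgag
CALR: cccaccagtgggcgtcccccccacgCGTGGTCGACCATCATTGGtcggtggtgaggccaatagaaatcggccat
HERPUD1: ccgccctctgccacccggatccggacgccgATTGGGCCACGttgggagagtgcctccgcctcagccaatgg
SDF2L1: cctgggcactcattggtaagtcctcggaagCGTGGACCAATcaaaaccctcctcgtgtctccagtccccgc
HYOU1: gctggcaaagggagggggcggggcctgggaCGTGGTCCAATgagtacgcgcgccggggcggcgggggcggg
The gene with the longer element and the smallest rise of those shown was CALR (0.76 ± 0.10), and HSPA5 rose by 1.96 ± 0.08. With the shorter element, SDF2L1, HERPUD1 and HYOU1 rose by 4.09, 3.29 and 3.02.

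Heat shock genes fell more often than they rose. The HSP70 genes HSPA1A, HSPA1B and HSPA8, with AHSA1 and HSF2, had no probe set with exactly 1 symbol and were not tested. The list, with co-chaperones and mitochondrial chaperones included, had 22 tested members. Of these 13 fell, 2 rose and 7 missed the threshold, the median was -0.42, and no member changed 2-fold. BAG3, an HSP70 nucleotide exchange factor, read 8.87, 9.06 and 9.13 at 12 h and 8.08, 8.04 and 8.18 at 48 h (-0.91 ± 0.09). HSP90AA1, inducible cytosolic HSP90, fell by 0.70 ± 0.07 and HSPE1, the mitochondrial HSP10, by 0.66 ± 0.10. HSPH1 fell by 0.83 ± 0.08, and its 2 other probe sets above the filter split, with changes of 0.12 and -1.02. Mitochondrial HSPA9 and the regulator HSF1 rose by 0.39 and 0.30.

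Of the NRF2 targets, 4 of 28 rose, 14 fell and 10 did not pass. The list's extremes, TXNIP and SLC7A11, also answer to other factors, and GCLC and TXNRD1 rose by 0.59 and 0.50. AKR1C1, an aldo-keto reductase, fell by 1.67 ± 0.22 and NQO1, a quinone reductase, by 0.76 ± 0.08. HMOX1, haem oxygenase 1, read 7.62, 7.63 and 7.33 at 12 h and 7.64, 7.60 and 7.66 at 48 h, and did not pass (0.11 ± 0.08, limma, adjusted p = 0.30). Metallothioneins and zinc transporters gave 4 rises and 8 falls among 17. MT2A fell by 0.82 ± 0.06, MT1X fell by 0.62 ± 0.07 and MT1M fell by 1.48 ± 0.14, while the metal importer SLC39A14 rose by 1.58 ± 0.09. Another SLC39A14 probe set rose by more, from a mean of 3.26 at 12 h, under 4, to 7.33 at 48 h. Metallothionein probe sets can cross-hybridise between family members. SLC39A14 was also the largest of 6 rises among 11 iron genes, where TFRC, the transferrin receptor, and ACO1 fell. TFRC fell by 0.64 ± 0.07, and its other probe sets above the filter changed by -0.89, 0.03 and 1.15.

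TXNIP had the largest fitted change. It read 9.48, 9.77 and 9.55 at 12 h and 3.28, 4.28 and 3.54 at 48 h, 59.8-fold lower in the fit (-5.90 ± 0.23, limma, adjusted p = 4.1e-09). Since 2 of the 3 arrays at 48 h lay under 4, the size of that fall is measured near the floor. ARRDC4, its arrestin relative with the same glucose-responsive control, read 4.93, 4.94 and 4.70 at 12 h and lay under 4 on all 3 arrays at 48 h, at least 1.81-fold lower. ARRDC3 fell by 1.39 ± 0.12 and KLF10 by 1.34 ± 0.12. Of the 8 genes in this glucose-sensing list 4 fell, 2 rose (MLX by 0.56 and HBP1 by 0.41) and 2 did not pass, among them MLXIP, which encodes MondoA. The carbohydrate response element bound by MondoA and ChREBP holds a pair of E-boxes 5 bases apart, and the letters CACGNG, 5 free bases and CACGNG stood in TXNIP alone of the 7 list genes with a window, against 0.0732% of all genes. The stretch is shown because TXNIP had the largest fitted change (chr1:145996621-145996697, minus strand, the match 88 to 72 bases before the start).
TXNIP: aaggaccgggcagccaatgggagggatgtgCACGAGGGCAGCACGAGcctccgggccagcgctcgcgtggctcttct
The capitals mark both E-boxes and the bases between them.

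Glycolysis and hypoxia genes fell more often than they rose. Of 30 glycolysis and hypoxia genes, 6 rose, 15 fell and 9 did not pass (median -0.35). HK1, the first enzyme of glycolysis, read 10.33, 10.66 and 10.67 at 12 h and 9.33, 9.32 and 9.49 at 48 h (-1.17 ± 0.11). PGAM1, PKM, GPI, TPI1 and LDHA fell by 0.86, 0.83, 0.68, 0.67 and 0.65, whereas GAPDH changed by -0.08 (adjusted p = 0.31) and the glucose transporter SLC2A1 by 0.08 (adjusted p = 0.55). Hypoxia targets did not move as a block: EGLN3, an oxygen-sensing hydroxylase, was at least 2.75-fold lower, with 5.74, 5.62 and 5.02 at 12 h and all arrays under 4 at 48 h. VEGFA, an angiogenic growth factor that ATF4 and hypoxia both induce, read 9.00, 9.01 and 8.69 at 12 h and 11.35, 11.37 and 11.05 at 48 h, 5.12-fold higher, and NDRG1 and ANKRD37 rose by 1.04 and 1.03. DDIT4 of this list rose by 0.48 ± 0.06.

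Of 13 fatty acid synthesis genes, 0 rose, 11 fell and 2, ACACB and ME1, did not pass. FASN, fatty acid synthase, read 8.86, 8.89 and 8.99 at 12 h and 7.24, 7.24 and 7.03 at 48 h (-1.75 ± 0.08), ELOVL6, a chain elongase, fell by 1.55 ± 0.10, and SREBF1, their SREBP regulator, by 0.88 ± 0.08. Cholesterol genes were mixed, with 5 rises, 8 falls and 5 not past the threshold of 18. EBP, a sterol isomerase, fell by 1.14 ± 0.08 and INSIG1 by 0.72 ± 0.14, and STARD4, a sterol carrier, rose by 1.06 ± 0.08. HMGCS1 fell by 0.80 ± 0.07 on its main probe set and read 0.48 higher on another.

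Of 32 respiratory chain and ATP synthase genes, 1 rose, 19 fell and 12 did not pass, mostly by little (median -0.22). ATP5MC1, a subunit of the ATP synthase ring, fell by 1.44 ± 0.09 and SDHA of complex II by 0.91 ± 0.06. Of 22 fatty acid oxidation genes and PPAR targets, 3 rose and 12 fell. PDK4, which shuts glucose carbon out of mitochondria, read 13.05, 13.24 and 13.02 at 12 h and 11.57, 11.73 and 11.55 at 48 h (-1.48 ± 0.12), and PPARGC1A fell by 0.89 ± 0.12. Among 14 FOXO targets and insulin-repressed genes, 6 rose and 2, PDK4 and BCL6, fell; the mitochondrial PCK2, also an ATF4 target, rose by 1.72 ± 0.09, KLHL24 by 1.14 ± 0.19 and KLF15 by 0.94 ± 0.16.

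The autophagy and lysosome list gave 22 rises, 3 falls and 10 genes not past the threshold of 35, with a median of 0.28. Beside WIPI1 and MAP1LC3B, the cargo receptor SQSTM1 read 10.89, 11.09 and 11.06 at 12 h and 12.19, 12.16 and 12.14 at 48 h (1.15 ± 0.09), and GABARAPL1 rose by 0.96 ± 0.17. GLA, a lysosomal galactosidase, was the largest fall (-1.24 ± 0.07). TFEB and TFE3, the regulators of lysosomal genes, changed by -0.12 and -0.05 and did not pass.

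Division genes fell with hardly an exception. Of 38 mitosis and G2/M genes, all 38 fell, 37 by at least 2-fold, with a median of -1.99 and a range of -2.84 to -0.93. Of 37 genes of G1/S and DNA replication, 35 fell, 33 by at least 2-fold, with a median of -1.57, and CDC6 and PRIM1 did not pass. MKI67, the proliferation antigen Ki-67, read 9.84, 9.74 and 10.11 at 12 h and 7.29, 7.28 and 7.56 at 48 h, 5.75-fold lower. CCNB1, cyclin B1, read 11.54, 11.53 and 11.50 against 9.68, 9.71 and 9.67, and the kinase it activates, CDK1, read 11.57, 11.56 and 11.54 against 9.74, 9.84 and 9.62. Replicates of these genes agreed within 0.4 and the times stood far apart, yet CCNB1 and CDK1 at 48 h remained well above the filter value of 4. In bulk RNA, fewer dividing cells and less of these RNAs per cell cannot be told apart.

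In mitosis, the kinetochore motor CENPE fell by 2.84 ± 0.10, the scaffold ANLN of the cleavage furrow by 2.68 ± 0.13 and the kinetochore subunit NUF2 by 2.53 ± 0.21. FOXM1, the transcription factor of this programme, fell by 2.46 ± 0.10 and the kinases AURKA and PLK1 by 2.30 and 2.16. CENPA, the centromeric histone, fell least (-0.93 ± 0.21). In replication, UHRF1 read 10.58, 10.69 and 10.62 at 12 h and 7.92, 8.14 and 7.73 at 48 h (-2.70 ± 0.14), ORC1 of the origin recognition complex fell by 2.64 ± 0.19, E2F8 by 2.55 ± 0.13 and RRM2, which makes deoxynucleotides, by 2.26 ± 0.08. The helicase subunits MCM2 to MCM7 fell by less, from 1.12 for MCM2 to 1.57 for MCM4, with MCM5 at 10.33, 10.28 and 10.36 against 8.85, 8.91 and 8.97. CDC6, which loads that helicase, changed by 0.05 ± 0.09 (adjusted p = 0.70).

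The promoters of falling division genes were searched for the textbook elements of MuvB and of E2F. The CHR element, TTTGAA on either strand, stood in 24 of 32 mitosis genes with a window (75.0%) against 18.2% of all genes, and the E2F site TTTCCCGC in 10 of 33 replication genes (30.3%) against 1.98%. Every gene with a match was tested and fell, as did all but 2 tested genes of these lists. Lists and elements were chosen with earlier results of these data known, so the shares are a description. Shown with the match in capitals are CDK1 (chr10:60778140-60778205, plus strand) and MKI67 (chr10:128126424-128126500, minus strand, with 2 matches) for the first, and UHRF1 (chr19:4909457-4909500, plus strand) and LIG1, a DNA ligase (chr19:48170421-48170488, minus strand), for the second.
CDK1: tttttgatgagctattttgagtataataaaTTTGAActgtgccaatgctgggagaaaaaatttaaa
MKI67: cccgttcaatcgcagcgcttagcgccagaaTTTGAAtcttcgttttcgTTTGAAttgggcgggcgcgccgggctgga
UHRF1: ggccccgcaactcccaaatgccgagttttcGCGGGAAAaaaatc
LIG1: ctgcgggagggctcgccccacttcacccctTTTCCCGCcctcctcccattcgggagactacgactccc
LIG1 fell by 2.00 ± 0.13. The E2F match in UHRF1 reads on the other strand and lay 14 to 7 bases before the start.

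Inhibitors of the cycle changed little. Of 17 CDK inhibitors and antiproliferative genes, 5 rose and 4 fell. CDKN1A (p21) read 9.07, 9.07 and 9.19 at 12 h and 9.40, 9.45 and 9.52 at 48 h (0.35 ± 0.08), CDKN1B (p27) overlapped between the times (0.01 ± 0.15, adjusted p = 0.98), and CDKN1C (p57) did not pass (0.21 ± 0.10, adjusted p = 0.083), although leaving out control 12 h replicate 2 or control 48 h replicate 1 gave adjusted p = 0.0096 and 0.043. BTG1, an antiproliferative cofactor, rose by 1.03 ± 0.06 and MXI1, a MYC antagonist, by 0.70 ± 0.06. Of 21 p53 targets, 8 rose and 7 fell. GDF15, SESN2, GADD45A and TNFRSF10B, also reached by ATF4 or CHOP, rose by 2.37, 1.75, 1.41 and 1.05. The other rises were BAX, PHLDA3, CDKN1A and ZMAT3, by 0.57, 0.52, 0.35 and 0.34. DDB2 fell most (-0.97), and MDM2 changed by -0.01. Which factor acted on these genes was not tested. Of 11 histone genes, 3 rose and 6 fell: H2AX and H2AZ1 fell by 1.59 and 0.76, whereas H2AC6 read 5.49, 5.09 and 5.02 at 12 h and 8.10, 8.09 and 8.02 at 48 h (2.87 ± 0.12). Probe sets of histone genes can cross-hybridise. Of 28 ribosome biogenesis and MYC targets, 5 rose and 13 fell, none by 2-fold. MYC rose by 0.54 ± 0.08 and TSR1, a ribosome assembly factor, fell by 0.62 ± 0.08. Other TSR1 probe sets above the filter changed by -0.8, -0.03 and 0.14. UBTF fell by 0.57 ± 0.18, a call lost without control 48 h replicate 2 (limma, adjusted p = 0.067). The rises in this list numbered 3 without control 12 h replicate 2 or control 48 h replicate 3.

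**Figure D3:**
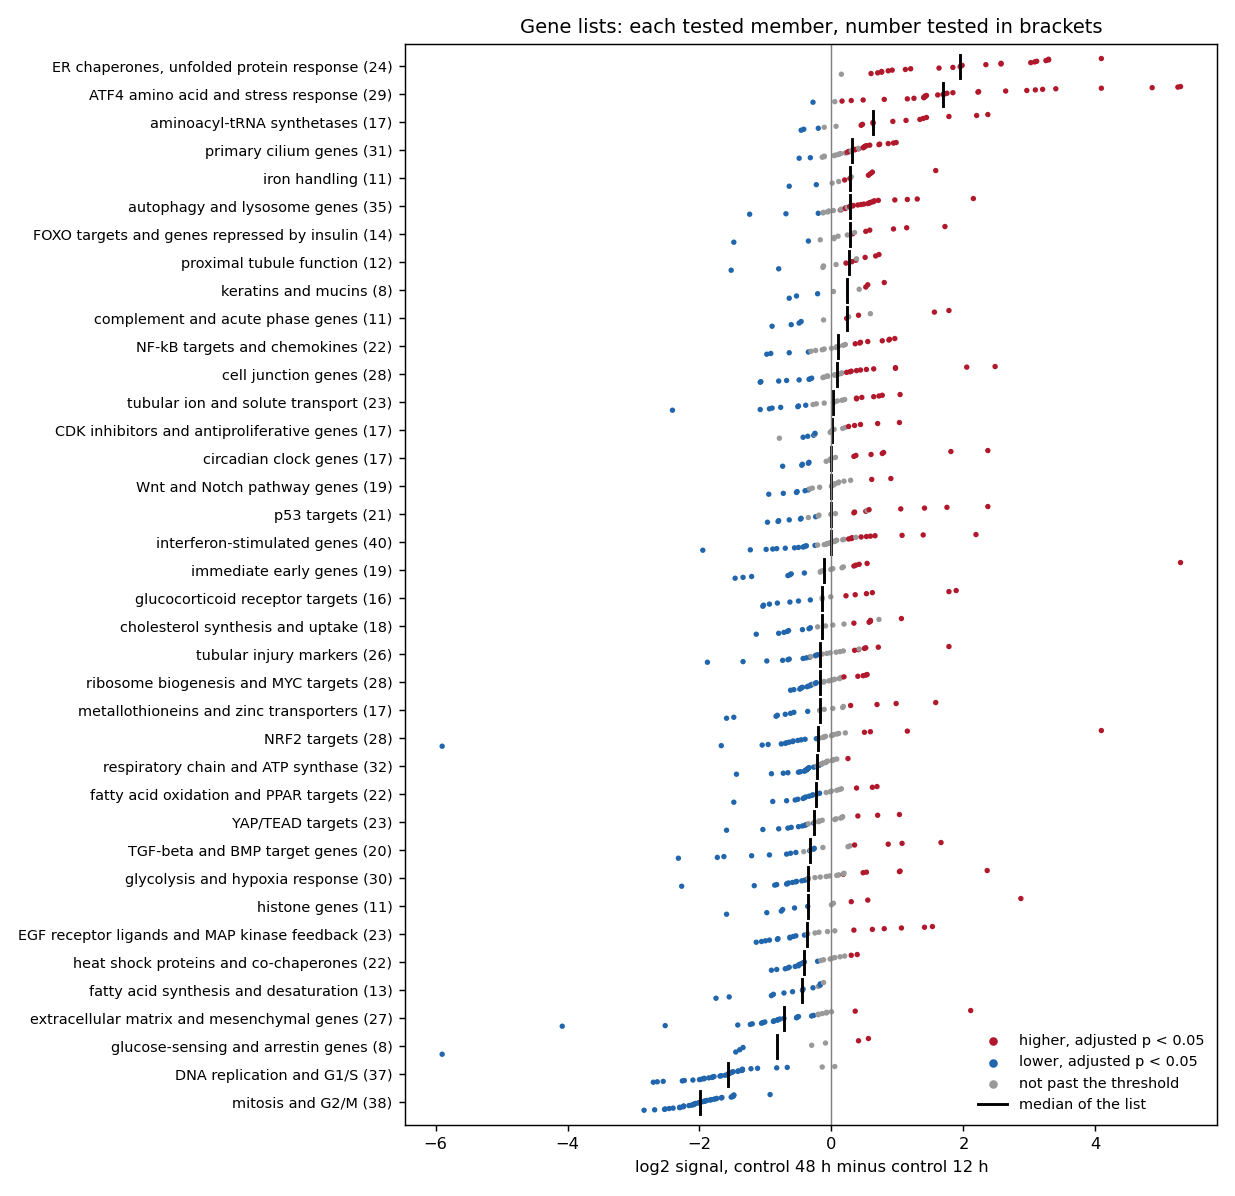
Log2 change from 12 h to 48 h in control cells (horizontal axis) of every tested member of 38 gene lists, with the number tested in brackets, red for higher, blue for lower and grey for not past an adjusted p of 0.05, and a black bar at each list's median. The medians ran from -1.99 for mitosis to 1.95 for ER chaperones, and most other lists straddled 0.

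The medians of the lists given by counts alone stood close to the -0.058 of all genes for interferon (-0.01), p53 (-0.01), clock (0.00), Wnt and Notch (0.00), CDK inhibitor (0.01), tubular transport (0.03), junction (0.08) and NF-kB (0.10) genes. They stood lower for glucose-sensing (-0.82), fatty acid synthesis (-0.44), EGF (-0.37), histone (-0.36), TGF-beta (-0.32), YAP (-0.26), fatty acid oxidation (-0.24) and NRF2 (-0.20) lists. Metallothionein (-0.18), ribosome biogenesis (-0.17), injury (-0.17), cholesterol (-0.15), glucocorticoid (-0.14) and immediate early (-0.12) lists lay between these. FOXO (0.28), iron (0.28), proximal tubule (0.27), keratin (0.23) and complement (0.23) lists had medians above 0.

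Matrix genes fell as a group: of 27 tested, 2 rose, 19 fell and 6 did not pass, with 8 falls of at least 2-fold and a median of -0.72. MMP1, interstitial collagenase, read 7.51, 7.28 and 7.19 at 12 h and lay under 4 on every 48 h array, at least 10.0-fold lower. THBS1, thrombospondin 1, read 8.70, 8.88 and 8.83 against 6.12, 6.47 and 6.24 (-2.52 ± 0.11). Its other probe sets above the filter gave -2.61 and -1.05. MMP7, matrilysin, fell by 1.42 ± 0.10. Collagens COL12A1, COL4A1, COL6A1 and COL1A1 fell by 1.04, 1.01, 0.88 and 0.72. LOX, which crosslinks collagen, ran against them, at 7.21, 7.34 and 6.90 at 12 h and 9.17, 9.30 and 9.32 at 48 h (2.11 ± 0.11), and another probe set gave 2.39. VIM, vimentin, fell by 0.24 ± 0.07 and CDH2, N-cadherin, by 0.30 ± 0.09, the latter a call lost without control 12 h replicate 3 (limma, adjusted p = 0.061). Of 6 fibroblast and pericyte markers, COL1A1, DCN and LUM lay above 4 and all 3 fell, while PDGFRA, PDGFRB and COL3A1 lay under 4 on every control array. The mean of the 6 was 6.21 to 6.23 per array at 12 h and 5.69 to 5.72 at 48 h, and the part of other cells in the fall of matrix genes was not tested.

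The cells kept an epithelial signal and held few proximal tubule transcripts at either time. Of 8 epithelial markers 7 lay above 4, with EPCAM at 12.73 ± 0.15 at 12 h and 13.10 ± 0.23 at 48 h (SD, n = 3). Of the 8, EPCAM, CDH1 and KRT18 rose and KRT8, KRT19 and PAX8 fell, and the mean was 9.10 to 9.23 per array at 12 h and 9.27 to 9.32 at 48 h. Of 12 measured proximal tubule markers 9 lay under 4 on all 6 control arrays, among them LRP2, CUBN, SLC34A1, AQP1 and ANPEP. Of the remaining markers CDH6, a cadherin of the developing tubule, read 12.37, 12.32 and 12.50 at 12 h and 10.80, 11.15 and 10.67 at 48 h (-1.52 ± 0.12), DPP4, a brush border peptidase, rose by 0.51, and MME changed by -0.13 (adjusted p = 0.48). The markers above 4 on any control array were 0 of 6 measured for immune cells, 1 of 7 for endothelium, 1 of 6 for the distal tubule and 2 of 8 for the collecting duct. Podocyte markers, 3 of 5 above 4, averaged 4.02 to 4.27 at 12 h and 3.73 to 3.88 at 48 h.

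In the longer list of proximal tubule function, 17 of 33 genes lay under the filter, and of 12 tested 6 rose and 2 fell. MIOX, inositol oxygenase, rose by 0.72 ± 0.09, ENPEP, a brush border peptidase, by 0.67 ± 0.11, and GATM, of creatine synthesis, fell by 0.80 ± 0.12. CDH16, the kidney-specific cadherin, read 7.71, 7.77 and 8.01 at 12 h and 8.18, 8.27 and 8.18 at 48 h and did not pass (0.38 ± 0.17, limma, adjusted p = 0.080), but did in a fit of the 6 control arrays alone (adjusted p = 0.010). Of 23 tubular transport genes, 7 rose and 8 fell. The taurine transporter SLC6A6 read 11.77, 11.87 and 11.91 at 12 h and 9.49, 9.40 and 9.45 at 48 h (-2.41 ± 0.08), and the cation-pore claudin CLDN2 fell by 1.08 ± 0.19. SLC16A4, a monocarboxylate carrier, rose by 1.04 ± 0.11. SLC4A4, the bicarbonate cotransporter, rose by 0.72 ± 0.11. Of its 4 other probe sets above the filter, 3 rose, by 1.32 to 1.89, and another read 0.28 lower.

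Junction genes were divided, with 11 rises, 8 falls and 9 not past the threshold of 28, and the rises numbered 7 without control 12 h replicate 3 and 6 without control 48 h replicate 1. CDH1, E-cadherin, read 7.39, 7.23 and 6.91 at 12 h and 7.95, 8.29 and 8.19 at 48 h (0.97 ± 0.13). ESRP1, an epithelial splicing regulator, rose by 2.05 ± 0.09, and CLDN16, the claudin of magnesium transport in the thick limb, read 8.12, 7.18 and 7.41 against 9.99, 10.04 and 10.13 (2.48 ± 0.18). CLDN11 fell by 1.07 ± 0.10. Of 8 keratins and mucins, 3 rose and 3 fell, KRT80 by +0.80 and KRT8 by -0.64 at the extremes. Among 31 primary cilium genes, 16 rose, 2 fell and 13 did not pass, with a median of 0.31 and no change of 2-fold; the transport subunit IFT20 rose by 0.98 ± 0.09 and the dynein DYNC2H1 by 0.94 ± 0.09.

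Tubular injury markers gave 6 rises and 11 falls among 26. LCN2, the injury marker NGAL, lay under 4 on all arrays at 12 h and read 5.29, 5.06 and 5.10 at 48 h, at least 2.22-fold higher. HAVCR1, which encodes KIM-1, rose by 0.50 ± 0.12, with 9.29, 9.73 and 9.23 against 9.80, 10.02 and 9.91. SOX9, a regulator of tubule repair, read 6.57, 6.57 and 6.61 at 12 h and 4.45, 4.83 and 4.84 at 48 h (-1.88 ± 0.17), and CD44, a hyaluronan receptor, fell by 1.34 ± 0.09. VCAM1 did not pass (-0.31 ± 0.19, limma, adjusted p = 0.19), but did with the 6 control arrays alone (adjusted p = 0.014).

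Signalling targets moved in part. Of 20 TGF-beta and BMP targets, 4 rose and 11 fell (7 without control 48 h replicate 3). INHBA, the subunit gene of activin A, was at least 2.88-fold lower, LTBP2, a matrix protein that resembles TGF-beta binding proteins, fell by 1.73 ± 0.17 and TGFBI by 1.63 ± 0.08, while the BMP antagonist GREM1 rose by 1.66 ± 0.13. INHBA and INHBE, subunits of the same hormone family, thus went in opposite directions. Of 23 YAP and TEAD targets, 3 rose and 10 fell, including CCN1 by 0.66 ± 0.11 and CCN2 by 0.38 ± 0.11. NT5E fell by 1.59 ± 0.11, but its other probe sets above the filter changed by only -0.16 and 0.12. WWTR1, which encodes TAZ, fell by 0.80 ± 0.08.

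Among 23 EGF receptor ligands and MAP kinase feedback genes, 6 rose and 12 fell. The ligands split: EREG read 8.42, 8.24 and 8.31 at 12 h and 9.74, 10.07 and 9.75 at 48 h (1.53 ± 0.13) and BTC rose by 1.41 ± 0.16, while HBEGF fell by 1.06 ± 0.16 and TGFA by 0.82 ± 0.08. EGFR, the receptor, rose by 0.80 ± 0.10. The ERK phosphatase DUSP6 read 12.68, 12.70 and 12.60 against 11.70, 11.85 and 11.60 (-0.94 ± 0.09), and ETV4, an ERK-induced factor, was at least 1.79-fold lower. Of 19 immediate early genes, 5 rose, ATF3 foremost, and 7 fell, with FOSL1 at least 1.24-fold lower and FOSL2 at -1.21 ± 0.09 on the log2 scale.

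Inflammatory lists moved in both directions. Of 22 NF-kB targets and chemokines, 8 rose and 4 fell; IL6 was at least 1.46-fold lower and TNFAIP2 fell by 0.92 ± 0.15, while IRAK2 rose by 0.88 ± 0.10. Of 40 interferon-stimulated genes, 11 rose and 13 fell, and the rises numbered 7 without the filter or without control 12 h replicate 3. OAS3, an antiviral synthetase, fell by 1.95 ± 0.16 and GBP1 by 1.23 ± 0.13, whereas the transcription factor IRF1 read 6.24, 5.82 and 6.22 at 12 h and 7.46, 7.42 and 7.56 at 48 h (1.39 ± 0.12) and ISG20 was at least 3.11-fold higher. Of 11 complement and acute phase genes, 4 rose and 4 fell: CD55, which shields cells from complement, rose by 1.56 ± 0.17, and C1R fell by 0.90 ± 0.07. Wnt and Notch genes gave 2 rises and 6 falls among 19, with HEY1 at least 1.51-fold higher and NRARP at -0.95 ± 0.18.

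Glucocorticoid and clock genes split by member. The medium of both groups held hydrocortisone, and of 16 glucocorticoid receptor targets 6 rose and 7 fell. TSC22D3, which encodes GILZ, read 8.16, 8.23 and 8.03 at 12 h and 9.89, 10.01 and 10.19 at 48 h (1.89 ± 0.15). SGK1, a kinase that promotes sodium reabsorption, read 13.02, 13.00 and 12.99 against 11.89, 12.03 and 12.01 (-1.03 ± 0.10). FKBP5 fell by 0.50 ± 0.12 on its main probe set, and its other probe sets above the filter changed by -0.43 and 0.61. Of 17 circadian genes, 7 rose and 5 fell (3 falls without control 12 h replicate 1 or control 48 h replicate 3). PER2, a repressor in the clock loop, read 5.82, 5.58 and 5.59 at 12 h and 7.85, 8.23 and 8.02 at 48 h, 5.17-fold higher, and NR1D2 rose by 1.81 ± 0.13 and NFIL3 by 0.79 ± 0.06. The groups lay 36 h apart, so a change with hours in culture and a different phase of a daily cycle cannot be told apart with a single point at each time.

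The same interval in CdCl-treated cells rests on 6 other arrays, so no array is shared. There 3712 genes (34.7%) were higher and 2946 (27.6%) lower at 48 h, with a median of 0.051. Of the genes called in both, 1848 were higher in both, 2049 lower in both and 452 opposite, and the changes correlated across genes (Pearson r = 0.68, Spearman rho = 0.66), a description, as genes are not independent replicates. The difference between the time changes passed the threshold in 4282 genes (40.1%), with the CdCl change above in 2888 and below in 1394.

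Division genes fell alike in number in CdCl cells: 38 of 38 mitosis genes (median -1.92) and 35 of 37 replication genes (median -1.82) fell there. The difference between the time changes passed in 6 of the 38 mitosis genes, a lower share than the 40.1% of all genes. In the replication list it passed in 18 of 37, a higher share than that of all genes. Of these 18, 12 had the larger fall in CdCl cells. TXNIP averaged 8.27 ± 0.26 (SD, n = 3) in CdCl cells at 12 h and 2.56 ± 0.28 at 48 h, against 9.60 ± 0.15 and 3.70 ± 0.52 in control cells. Both 48 h means lay under 4, so the sizes of these falls cannot be compared. LAMP3 and ALDH1L2 were the members of the 15 largest rises whose difference did not pass. For ALDH1L2 it was -0.44 ± 0.28, while the 12 h means of LAMP3, 2.62 with and 2.79 without CdCl, lay under 4 and leave its difference unmeasured.

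The stress programmes differed between the treatments. In the ATF4 list 20 of 29 rose and 4 fell in CdCl cells, with a median of 0.63, and the difference passed in 24 genes, 23 of them with the smaller change in CdCl cells. In the ER list 23 of 24 again rose, with a median of 1.10, and the difference passed in 13, with 12 smaller in CdCl cells. The levels differed by gene. ATF3 averaged 10.86 ± 0.06 (SD, n = 3) in CdCl cells at 12 h and 11.13 ± 0.02 at 48 h, against 3.88 ± 0.45 and 9.17 ± 0.11 in control cells. DDIT3 averaged 11.50 ± 0.11 and 12.93 ± 0.07 with CdCl, against 7.48 ± 0.07 and 12.73 ± 0.07 without, with the 48 h means close to each other. HERPUD1 likewise averaged 13.74 ± 0.18 with and 13.69 ± 0.04 without CdCl at 48 h. INHBE and NUPR1 did not follow this: INHBE averaged 7.91 ± 0.19 and 11.22 ± 0.05 with CdCl, against 7.05 ± 0.05 and 12.32 ± 0.04 without. NUPR1 averaged 4.93 ± 0.47 and 7.39 ± 0.19 with CdCl, against 3.99 ± 0.34 and 8.85 ± 0.31 without, so both ended lower in CdCl cells. SLC7A5 rose by 2.64 in control cells and changed by -0.42 in CdCl cells.

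**Figure D4:**
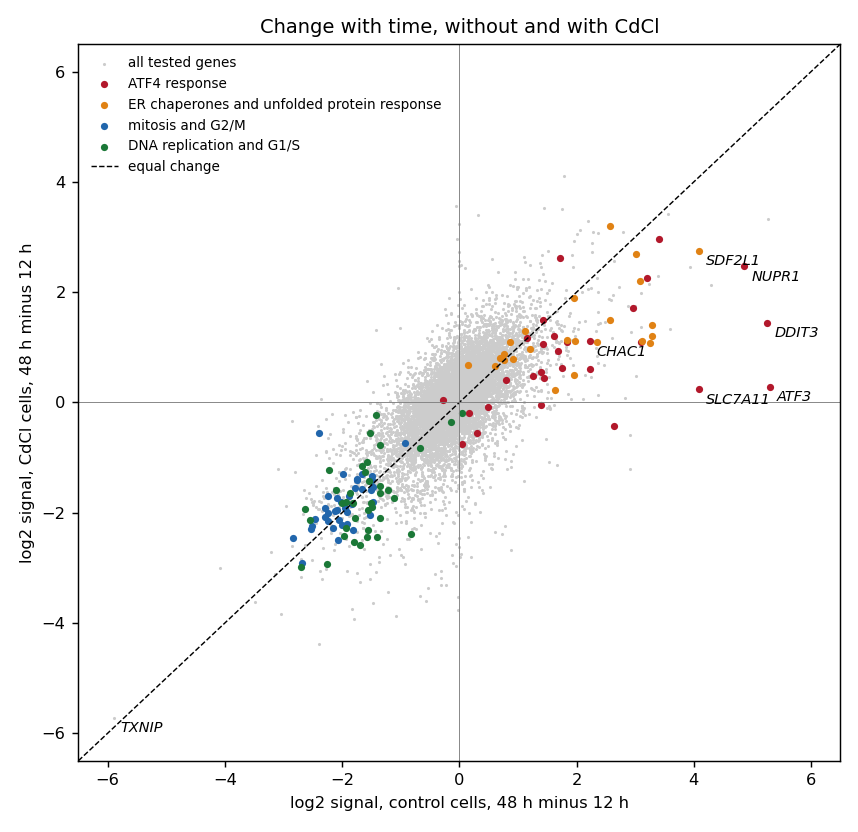
Log2 change from 12 h to 48 h in control cells (horizontal axis) against the same change in CdCl-treated cells (vertical axis) for the 10683 tested genes, with members of 4 lists coloured and the dashed line at equal change. Most mitosis and replication genes lie at the lower left. Some stand well off the line, such as CDT1 at -0.83 and -2.39 and ESPL1 at -2.4 and -0.55. ATF4 and ER members lie mostly below the line, and ATF3 stands at 5.29 and 0.28.

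Glycolysis and hypoxia genes fell in greater number in CdCl cells, 25 of 30 against 15, and the difference passed in 19, with 18 lower in CdCl cells; SLC2A1 changed by -0.95 there and PDK1 by -1.49. Heat shock genes fell in 19 of 22 against 13, and in all 15 where the difference passed the CdCl change was the lower. In the respiratory chain list 11 of 32 differences passed, a share below the 40.1% of all genes. All 11 had the CdCl change above the control change, and the list median was 0.01 in CdCl cells against -0.22. Proximal tubule genes had 6 rises and 2 falls in control cells and 2 rises and 8 falls in CdCl cells, and tubular transport genes 7 and 8 against 2 and 16.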

How the data were processed

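The authors deposited log2 signals per probe set for the 12 arrays, made with GCRMA per the submitters' processing notes; GCRMA corrects background by probe sequence and normalises between arrays, which compresses low signals. The GCRMA version was not stated there. Values were used as deposited. The 1801 probe sets with several symbols, 11783 with none and 62 array controls were left out of the tests, and 41037 of the 41091 named probe sets matched RefSeq by gene ID.

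A single limma fit (3.58.1, R 4.3.3) of the 4 group means on all 12 arrays gave two-sided contrasts, Benjamini-Hochberg adjusted over 10683 genes. A group with all 3 arrays under 4 was set to 4 for folds. Named genes are the 15 largest non-overlapping rises and falls, up to 4 members of each of 38 lists, and index genes, some of which are not reported here. Members given beside these were chosen after their values were seen. The members, lists and motifs were chosen with earlier results of these data known. Replicate numbers were checked for pairing: deviations of same-numbered arrays correlated at -0.01, 0.07 and 0.11, so no block was used. Alternatives covered normalization, filter, probe sets, limma settings, leaving out each array and, added after seeing the data, group means under 4 set to 4. On simulated data for control 48 h against 12 h with 10683 genes, 200 genes were changed per draw. Of log2 changes of 0.5, 1 and 2, 60.5%, 90.6% and 100% were recovered, with 0.12% false calls. In the data far more genes, 6076, were called, so these rates need not hold there. The number of arrays limits the precision.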

Additional observations from a re-analysis of the deposited data

Results flagged for a closer look

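The change from 12 h to 48 h differed between CdCl-treated and control cells, by the interaction term of the limma fit at an adjusted p under 0.05, in 19 of the 30 genes with the largest changes in control cells; over all genes the share was 40.1%. The values are the CdCl change minus the control change on the log2 scale. Of the 15 largest rises, 13 had the smaller change in CdCl cells: ATF3 by -5.01, SLC7A11 by -3.86, DDIT3 by -3.81, NUPR1 by -2.39, SCG5 by -2.26, BEX2 and DNAJB9 by -2.17 each, HERPUD1 by -2.08, INHBE by -1.96, ERN1 by -1.89, ERO1B by -1.48, SDF2L1 by -1.34 and LRRC49 by -1.10. Of the 15 largest falls, 5 fell less in CdCl cells, GAL by a difference of 2.52, BLM 1.90, PLAT 1.52, MMP1 1.08 and NCAPH 1.08, and TNFAIP6 fell further (-0.79). The genes were ranked on their change in control cells, which is part of this difference, so the direction is a description. Some of these sizes include signal under 4. With group means under 4 set to 4, a setting chosen after seeing the data and not tested, the difference was 0.33 for MMP1 and -1.0 for SCG5. It was -1.09 for TNFAIP6, whose 48 h means both lay under 4, and 1.78 for BLM, which averaged 3.47 ± 0.61 (SD, n = 3) in CdCl cells at 12 h and lay under 4 at 48 h in both treatments. ATF3 (-4.90) and NUPR1 (-2.39) were near 4 in control cells at 12 h. The LRRC49 and TNFAIP6 calls are lost under several settings.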

How the results depend on the processing

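Under centring on array medians, quantile normalization, no filter, a filter at 6, the 6 control arrays alone, limma trend and a replicate block, the higher calls numbered 2307 to 2661 and the lower calls 3240 to 3689. With the replicate block they numbered 2429 and 3452. Leaving out each array in turn gave 2207 to 2586 and 3180 to 3676, with 417 to 471 and 701 to 759 at least 2-fold, and 3736 to 4200 differences between the time changes. With every probe set tested, 19005 features, calls rose to 4728 and 5395, 2-fold calls to 1083 and 1133 and differences to 6775, since genes with several probe sets then count more than once. No called value changed sign. The difference for TNFAIP6 missed the threshold without the filter (adjusted p = 0.11), with every probe set (0.050) and without any of 7 arrays (0.064 to 0.10), and that for LRRC49 without the filter (0.080) and without any of 3 arrays (0.051 to 0.053). Of 157 second probe sets of named genes above the filter, 148 had the same sign and 8 the opposite. With group means under 4 set to 4, chosen after seeing the data, the difference for TXNIP, which did not pass in the fit, went from 0.18 to 1.33, with no test, and that for SLN from 0.51 to -0.11. Weak signals near the floor limit the resolution for low genes.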
